A study of Homo sapiens with 12 samples.

Results

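Expression of 41 genes of homologous recombination, the Fanconi pathway and DNA damage signalling was followed in 2 human hepatoma lines after knockdown of the centromere gene CENPU. The 41 genes were chosen by name for their known functions, with earlier results of these data known. Each symbol matched exactly 1 of the 60664 gene identifiers in the deposited table. RNA was sequenced from 12 libraries, 3 in each of 4 groups. Huh-7, a hepatoma line that still makes liver plasma proteins, and MHCC-97H, a hepatocellular carcinoma line, were each transfected with si-CENPU, a small interfering RNA against CENPU, or with the control si-NC. The groups were thus Huh-7 si-CENPU, Huh-7 si-NC, MHCC-97H si-CENPU and MHCC-97H si-NC. All 12 libraries were labelled wild type, from hepatoma cells in DMEM with fetal bovine serum, and no time after transfection was given. Values are TPM, a share of all transcripts in a library, a level already corrected for transcript length and scaled to a fixed total per library.

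Homologous recombination repairs broken chromosomes and stalled replication forks by copying an intact sister chromatid, so most of its genes are used in S and G2 phase. Kinases signal the break, nucleases cut one strand back to leave a single-stranded tail, BRCA proteins load the recombinase on that tail, and nucleases resolve the joint molecules that follow. The Fanconi pathway removes crosslinks between the strands: a core complex attaches ubiquitin to the FANCD2 and FANCI pair, which recruits nucleases and the recombination proteins.

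The targeted gene was low in all libraries. CENPU read 0.17, 0.11 and 0.45 TPM in Huh-7 si-CENPU, against 0.56, 0.84 and 0.53 TPM in Huh-7 si-NC. In MHCC-97H it read 0.22, 0.45 and 0.24 TPM with si-CENPU and 1.17, 0.83 and 0.89 TPM with si-NC, so the groups did not overlap in either line. The si-CENPU mean was 0.378 times the si-NC mean in Huh-7 and 0.315 times in MHCC-97H, a partial fall at levels too low to size it well. Sequencing depth cannot be recovered from TPM, so the depth behind a value is unknown, and an exact 0 can be a failed estimate. The labels do not tell separate cultures from repeat preparations of 1 culture within a group, so every p-value reflects the scatter of these libraries alone, which may be technical. Huh-7 si-NC replicate 1 stood apart, with a mean correlation of 0.965 to the other libraries of its line, where the other 5 had 0.975 to 0.978. Libraries also deviated from their line with transcript GC content, by a Spearman rho of -0.525 to 0.468. In bulk RNA, fewer cells of a type and less RNA per cell cannot be told apart.

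The labels were checked against marker genes. Summed TPM of 10 hepatocyte markers was 1.43 to 1.73 in MHCC-97H si-CENPU and 0.68 to 1.17 in MHCC-97H si-NC, against 6663 to 7571 in Huh-7 si-CENPU and 7114 to 7589 in Huh-7 si-NC. Albumin (ALB) was listed at 0 to 0.03 TPM and HNF4A at 0.37 to 0.82 TPM in MHCC-97H, so the defining hepatocyte genes were at or near 0 in that line. Of other cell types, the T cell gene CD3E lay at or under 0.08 TPM in every library. The 4 endothelial markers summed to 0.35 to 0.68 TPM in MHCC-97H and 0.01 to 0.36 TPM in Huh-7. Of these, PECAM1 and KDR lay at or under 0.04 TPM in every library. The 5 fibroblast markers summed to 2.15 to 4.19 TPM in MHCC-97H and 0.71 to 1.58 TPM in Huh-7. The macrophage-associated CD68 lay between 15.6 and 46.2 TPM, and LYZ between 11.4 and 25.7 TPM in Huh-7. Summed TPM of 15 proliferation markers was 349 to 500 in MHCC-97H si-CENPU and 358 to 490 in MHCC-97H si-NC. In Huh-7 it was 117 to 150 with si-CENPU and 113 to 165 with si-NC, and 5 of the 15, PCNA, MCM2, MCM6, CDK1 and CCNE1, stayed under 1 TPM in each Huh-7 library. MKI67, another of these markers, read 1.72 to 4.55 TPM in those libraries. Genes that all dividing cells use were thus near 0 in Huh-7, and low values of repair genes in this line can be poor estimates too.

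Start-site sequence is shown for 5 genes. FANCE, TOPBP1, CHEK1 and FANCA were 4 of the 5 members with the largest difference between the lines in si-NC cells, and MUS81 was the member with the smallest. The 250 bases before the first listed RefSeq start of GRCh38.p14 are given 5′ to 3′ on the gene's strand. They lie at chr6:35452088-35452337 on the plus strand for FANCE, chr3:133661942-133662191 on the minus strand for TOPBP1 and chr11:125625979-125626228 on the plus strand for CHEK1. For FANCA they lie at chr16:89816648-89816897 on the minus strand, and for MUS81 at chr11:65860183-65860432 on the plus strand. Capitals mark the letters of an E2F-type site, the kind bound by the factors that switch on S phase genes: the letters TTCCCGC, as well as TTCGCGC, together with TTGCCGC, and likewise TTGGCGC, each searched on either strand.
FANCE: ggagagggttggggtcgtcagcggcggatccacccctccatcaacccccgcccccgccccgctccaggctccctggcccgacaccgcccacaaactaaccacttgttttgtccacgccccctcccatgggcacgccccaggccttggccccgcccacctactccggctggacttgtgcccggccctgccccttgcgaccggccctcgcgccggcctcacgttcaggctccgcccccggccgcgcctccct
TOPBP1: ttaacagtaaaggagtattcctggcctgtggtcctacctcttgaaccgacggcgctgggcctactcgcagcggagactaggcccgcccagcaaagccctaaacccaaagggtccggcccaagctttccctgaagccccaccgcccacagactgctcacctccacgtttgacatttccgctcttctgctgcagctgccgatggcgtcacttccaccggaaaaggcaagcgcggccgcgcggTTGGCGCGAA
CHEK1: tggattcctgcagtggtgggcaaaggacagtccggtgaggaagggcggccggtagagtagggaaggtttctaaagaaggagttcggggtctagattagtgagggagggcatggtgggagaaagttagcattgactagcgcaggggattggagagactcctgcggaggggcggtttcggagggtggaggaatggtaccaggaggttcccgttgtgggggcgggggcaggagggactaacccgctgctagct
FANCA: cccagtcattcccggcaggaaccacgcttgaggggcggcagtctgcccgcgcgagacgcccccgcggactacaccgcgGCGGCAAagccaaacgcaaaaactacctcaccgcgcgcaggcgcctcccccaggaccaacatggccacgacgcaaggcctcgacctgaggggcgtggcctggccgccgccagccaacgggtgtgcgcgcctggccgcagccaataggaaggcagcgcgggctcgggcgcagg
MUS81: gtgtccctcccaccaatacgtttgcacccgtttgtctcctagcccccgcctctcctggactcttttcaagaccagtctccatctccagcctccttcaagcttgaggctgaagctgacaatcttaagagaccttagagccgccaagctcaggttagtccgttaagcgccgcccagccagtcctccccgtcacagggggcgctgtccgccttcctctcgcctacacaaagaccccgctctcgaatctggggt
TOPBP1 held 2 matches that overlap at the end of its window, FANCA held 1, and the other 3 windows held 0. Of the 37 members with a listed start, 11 held at least 1 match (29.7%), against 14.5% of 15843 protein-coding genes and 11% of 27305 genes of any kind. Those 11 were RAD54L, FANCL, TOPBP1, FANCG, FANCC, RAD52, RAD51AP1, BLM, FANCA, RAD51D and EME1. Median GC of the windows was 64.4% for members and 62.4% for protein-coding genes. A match is a description of these letters, not a site. The TOPBP1, CHEK1 and MUS81 windows lie within the annotated span of the gene, which has other starts farther upstream.

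Levels of the 41 genes spanned a wide range and most were low. The mean over the 6 libraries of a line reached at least 1 TPM for 26 members in MHCC-97H and 19 in Huh-7, and was under 0.5 TPM for 4 members in MHCC-97H and 17 in Huh-7. The median member mean was 2.16 TPM in MHCC-97H and 0.773 TPM in Huh-7. FANCG was the most abundant, at 28.9 TPM in MHCC-97H and 20.2 TPM in Huh-7, and FANCM the least, at 0.298 and 0.0333 TPM in the same order of lines. Members at 10 TPM or more were XRCC3, MUS81, FANCA and FANCG in MHCC-97H, and MUS81 and FANCG in Huh-7. BLM, RAD51B and FANCM were listed at 0 in at least 1 Huh-7 library, and 0 members were listed at 0 in MHCC-97H.

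**Figure D1:**
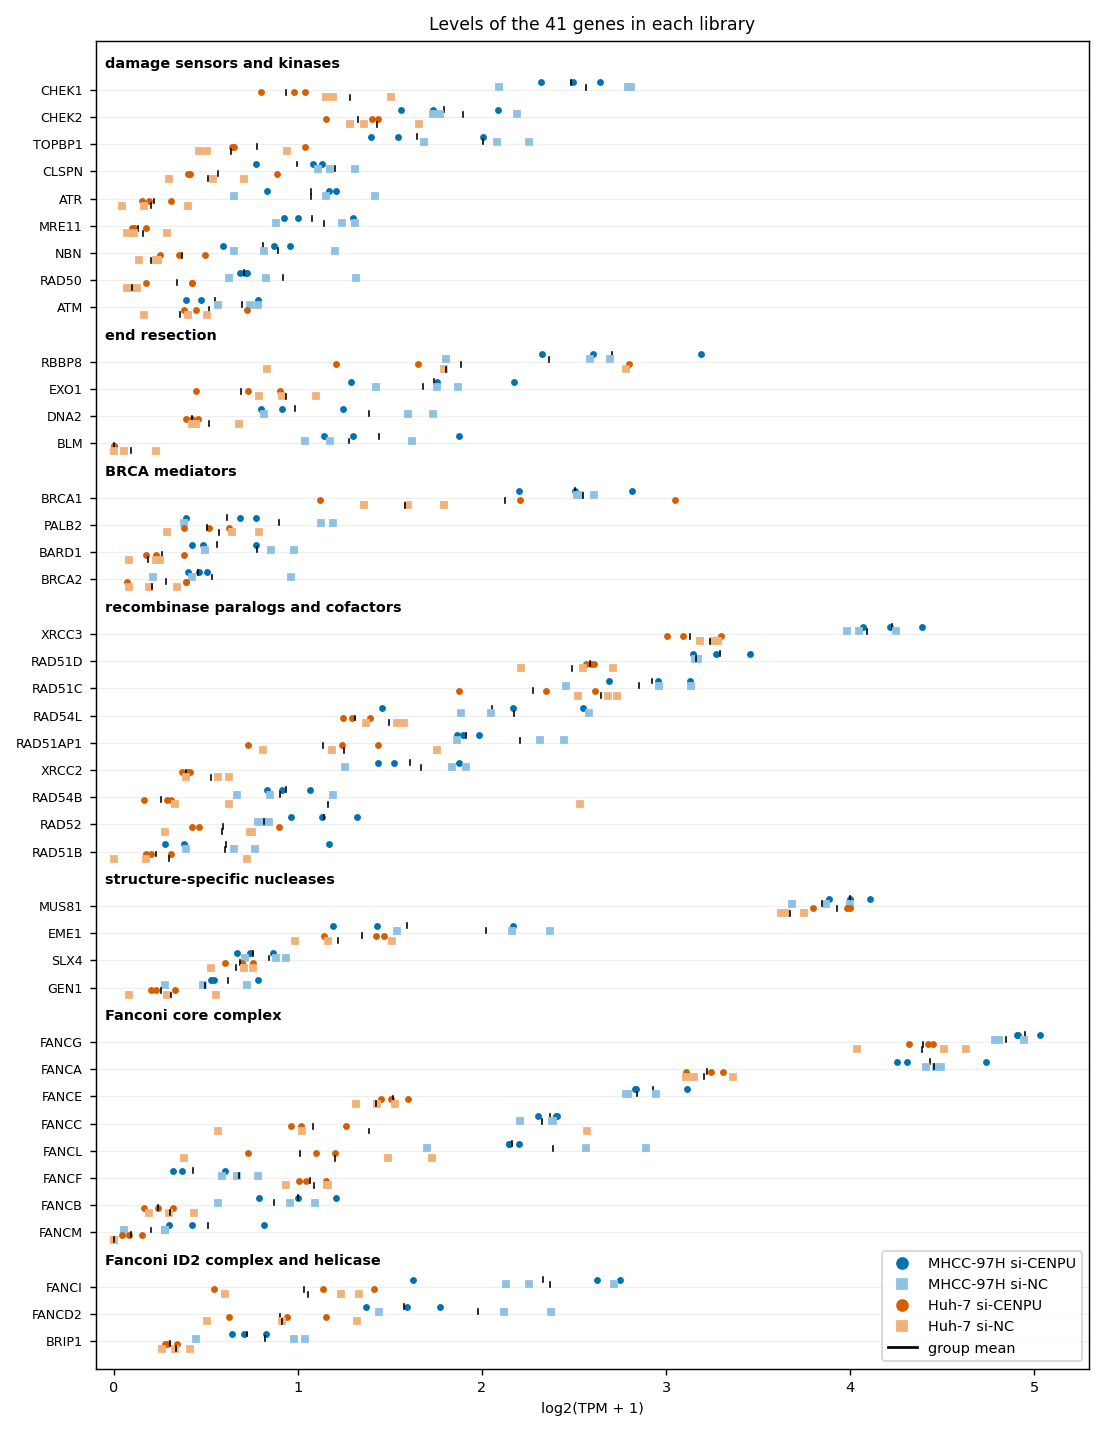
Levels of the 41 genes on the log2(TPM + 1) scale (horizontal axis), 1 point per library and a tick for each group mean, grouped by role. FANCG, MUS81, FANCA and XRCC3 lie farthest right in both lines, and most blue points (MHCC-97H) lie right of the orange points (Huh-7).

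Among damage sensors and kinases the highest mean in MHCC-97H was that of CHEK1, the kinase that halts the cycle below ATR, at 4.85 TPM. CHEK1 averaged 1.18 TPM in Huh-7. CHEK2, the corresponding kinase below ATM, averaged 2.64 TPM in MHCC-97H and 1.62 TPM in Huh-7, where it was the highest of these genes. Both apical kinases were scarce as RNA: ATM ranged from 0.31 to 0.72 TPM in MHCC-97H and from 0.12 to 0.65 TPM in Huh-7, and ATR from 0.57 to 1.67 TPM in MHCC-97H and from 0.03 to 0.32 TPM in Huh-7. MRE11, RAD50 and NBN, which form the complex that first binds broken ends, averaged 1.17, 0.783 and 0.818 TPM in MHCC-97H, against 0.105, 0.170 and 0.222 TPM in Huh-7. TOPBP1, the activator of ATR, averaged 2.63 TPM in MHCC-97H and 0.650 TPM in Huh-7. CLSPN, which hands the signal to CHEK1, averaged 1.15 TPM in MHCC-97H and 0.468 TPM in Huh-7.

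In end resection, RBBP8 (CtIP), which starts the cutting, averaged 5.03 TPM in MHCC-97H and 3.09 TPM in Huh-7. EXO1 and DNA2, the nucleases of long-range resection, averaged 2.34 and 1.35 TPM in MHCC-97H, against 0.773 and 0.387 TPM in Huh-7. BLM, the helicase that works with DNA2, read 1.21, 1.46 and 2.67 TPM in MHCC-97H si-CENPU and 1.05, 1.26 and 2.07 TPM in MHCC-97H si-NC. In Huh-7 it was listed at 0 in all 3 si-CENPU libraries, while si-NC gave 0.04, 0 and 0.17 TPM. No fold is given for BLM, since its low values in Huh-7 can be failed estimates.

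The BRCA mediators were uneven. BRCA1, whose protein promotes resection and brings in PALB2, averaged 4.81 TPM in MHCC-97H and 3.02 TPM in Huh-7. Its partner BARD1 averaged 0.607 TPM in MHCC-97H and 0.170 TPM in Huh-7. BRCA2, which loads the recombinase, averaged 0.428 and 0.190 TPM in the same order, and PALB2, the bridge between BRCA1 and BRCA2, 0.732 and 0.463 TPM. BRCA1 thus lay several-fold above the 3 genes whose proteins it works with, a comparison of length-corrected levels.

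Recombinase paralogs and cofactors held 3 of the more abundant members by TPM. XRCC3 averaged 17.0 TPM in MHCC-97H and 8.13 TPM in Huh-7. RAD51D averaged 8.40 TPM in MHCC-97H and 4.85 TPM in Huh-7, and RAD51C 6.5 TPM in MHCC-97H and 4.61 TPM in Huh-7. The paralogs XRCC2 and RAD51B were lower, at 2.16 and 0.557 TPM in MHCC-97H and 0.378 and 0.217 TPM in Huh-7. RAD54L, a translocase that helps the strands pair, averaged 3.48 TPM in MHCC-97H and 1.65 TPM in Huh-7, and RAD51AP1, a stimulator of the same step, 3.23 TPM in MHCC-97H and 1.35 TPM in Huh-7. RAD52, an annealing protein, averaged 0.987 TPM in MHCC-97H and 0.523 TPM in Huh-7. RAD54B, the relative of RAD54L, lay between 0.12 and 0.54 TPM in 5 Huh-7 libraries and at 4.79 TPM in Huh-7 si-NC replicate 1, and between 0.59 and 1.28 TPM in MHCC-97H.

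Of the structure-specific nucleases, MUS81 was abundant and its partner EME1 was not. MUS81, the catalytic subunit that cuts joint molecules and stalled forks, ranged from 11.84 to 16.24 TPM in MHCC-97H and from 11.32 to 15.02 TPM in Huh-7. EME1 averaged 2.67 TPM in MHCC-97H and 1.46 TPM in Huh-7. SLX4, the scaffold on which several nucleases assemble, averaged 0.745 TPM in MHCC-97H and 0.598 TPM in Huh-7. GEN1, the Holliday junction resolvase, averaged 0.480 TPM in MHCC-97H and 0.222 TPM in Huh-7.

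The Fanconi core complex spanned the whole range of the 41 genes. FANCG and FANCA, 2 subunits of one subcomplex, averaged 28.9 and 20.9 TPM in MHCC-97H, against 20.2 and 8.30 TPM in Huh-7. FANCE averaged 6.41 TPM in MHCC-97H and 1.78 TPM in Huh-7, FANCC 4.09 and 1.64 TPM, and the ubiquitin ligase subunit FANCL 4.0 and 1.25 TPM in the same order. FANCB averaged 0.932 TPM in MHCC-97H and 0.212 TPM in Huh-7. FANCF, the adaptor of the complex, went the other way, at 0.25 to 0.72 TPM in MHCC-97H and 0.91 to 1.24 TPM in Huh-7, with no overlap between the lines. FANCM, the translocase that anchors the complex to DNA, did not pass 0.76 TPM in any library. Of the targets, FANCI averaged 4.28 TPM in MHCC-97H and 1.12 TPM in Huh-7, and FANCD2 2.54 TPM in MHCC-97H and 0.913 TPM in Huh-7. BRIP1 (FANCJ), a helicase partner of BRCA1, averaged 0.723 TPM in MHCC-97H and 0.248 TPM in Huh-7.

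The levels moved with the base composition of the transcripts. Across the 41 members, the Spearman rho of mean level with transcript GC content was 0.59 in MHCC-97H and 0.68 in Huh-7, against 0.26 and 0.33 across 10970 tested genes with a GC value. The rho with the length of the longest transcript was -0.40 in MHCC-97H and -0.48 in Huh-7, against -0.14 and -0.29 across those genes. These describe genes of shared libraries, which are not independent replicates. The members included genes averaging under 1 TPM over the 12 libraries, while the tested genes all averaged at least 1 TPM. The sets are thus unlike, so whether the tie is stronger among the members cannot be told. Of 10 members with GC above 50%, 8 averaged at least 1 TPM over the 12 libraries, RAD52 and SLX4 being the other 2. Of 12 members with GC under 40%, 2 did, RBBP8 and RAD51AP1. The part of base composition in the order of the levels was not tested.

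**Figure D2:**
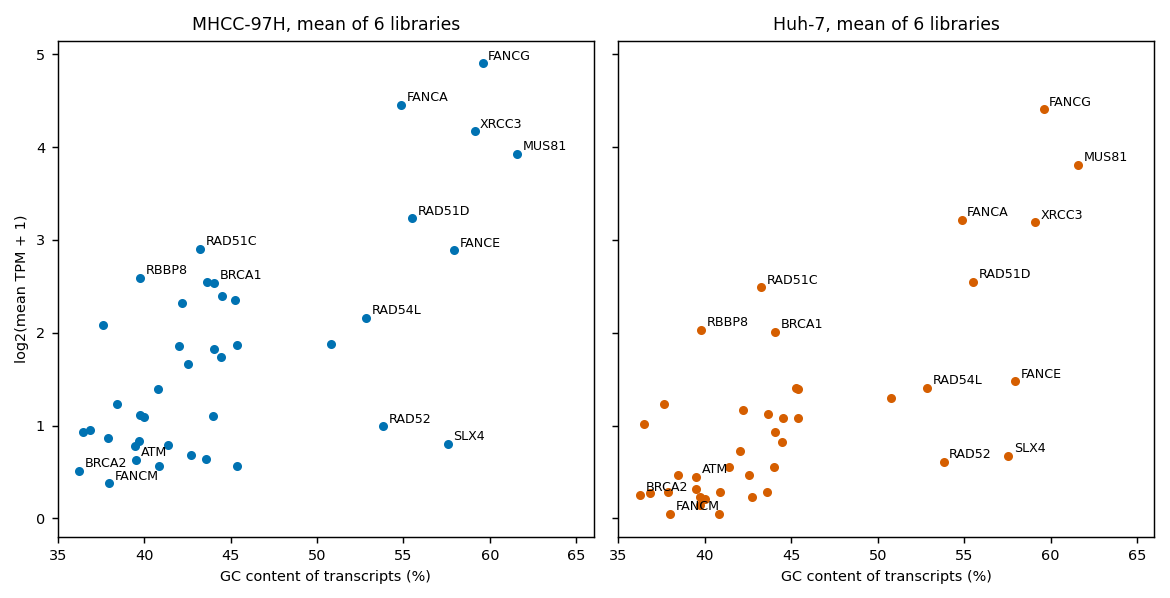
Mean level of each member over the 6 libraries of a line, as log2(mean TPM + 1), against the GC content of its transcripts in percent, MHCC-97H on the left and Huh-7 on the right. The 4 highest members (FANCG, MUS81, FANCA, XRCC3) all have GC above 50%, while RAD52 and SLX4 are low at similar GC.

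Other genes share exon sequence with 26 of the 41 members, and the strand setting of the counting is not given in the sources used here. Reads of such pairs cannot be told apart. The shared part was 76.7% of exonic bases for XRCC3 with KLC1, 79.7% for RAD50 with AC116366.3 and TH2LCRR, and 59.1% for RAD54B with FSBP. It was 25.1% for RAD54L with LRRC41, 23.6% for FANCA with ZNF276, and 14.1% for MUS81 with CFL1 and EFEMP2. KLC1 averaged 13.1 TPM in MHCC-97H and 7.75 TPM in Huh-7, beside XRCC3. CFL1 (cofilin), on the strand opposite to MUS81, averaged 2439 TPM in MHCC-97H and 1755 TPM in Huh-7.

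The comparison of si-CENPU with si-NC asked whether the expression of these genes changed after the knockdown. It left no member past the threshold in either line. Genes averaging at least 1 TPM over the 12 libraries were tested with limma as log2(TPM + 1), a scale on which changes of low genes look smaller than they are, and called at an adjusted p below 0.05 over all 11088 tested genes. This filter kept 21 of the 41 members. CENPU itself, at a mean of 0.538 TPM over the 12 libraries, lay under it, so its fall was not tested in this fit. In Huh-7 limma called 0 of the 21 (0.00902% of all tested genes were called), and 1 was at an unadjusted p below 0.05, where 4.57% of all tested genes were. In MHCC-97H it called 0 of the 21 (0.00902% of all tested genes) and 0 were at an unadjusted p below 0.05, where 3.42% of all tested genes were. With the knockdown averaged over both lines 0 were called (0.00902%), and 1 was at an unadjusted p below 0.05, where 4.06% of all tested genes were. The difference between the lines in their response gave 0 calls (0.00902%) and 0 members at an unadjusted p below 0.05, where 3.45% of all tested genes were.

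The members' changes were small on average. Their median log2 change was -0.03 in Huh-7, against 0.01 for all tested genes, and -0.03 in MHCC-97H, against -0.05 for all tested genes. In Huh-7, 9 of the 21 had positive and 12 negative changes, and the same numbers held in MHCC-97H. A p above the threshold does not show equal levels, so the 95% intervals matter. On this scale a 2-fold limit applies to TPM + 1, so members near or under 1 TPM can change by more in TPM. The intervals lay within that limit either way for 18 of 21 members in each line. RBBP8, BRCA1 and FANCC were the exceptions in Huh-7, with intervals from -1.04 to 1.20, from -0.28 to 1.37 and from -1.15 to 0.54 log2 units. In MHCC-97H they were RBBP8 (-0.78 to 1.46), EME1 (-1.04 to 0.18) and FANCL (-1.01 to 0.56). With the filter lifted, 41 of 41 members were tested and 0 were called in either line (0.0132% of all genes in Huh-7, 0.0231% in MHCC-97H).

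**Figure D3:**
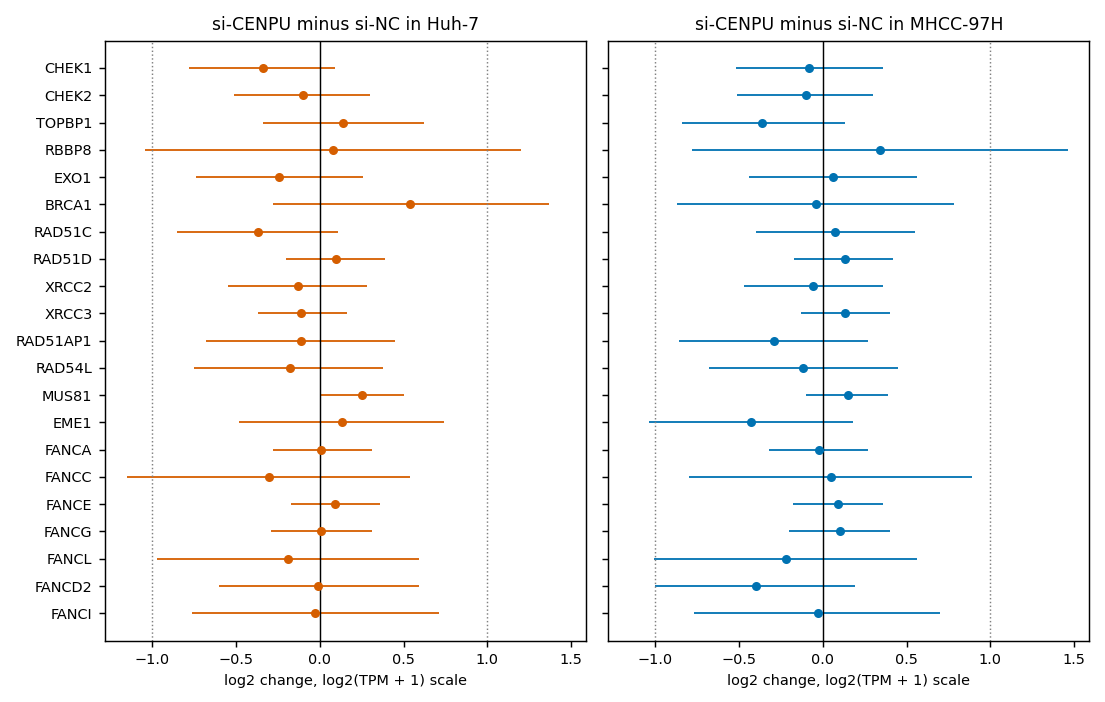
Log2 change after si-CENPU relative to si-NC for the 21 tested members (points) with 95% intervals (bars). Huh-7 is on the left and MHCC-97H on the right, with dotted lines at a 2-fold change of TPM + 1. The interval of MUS81 in Huh-7 alone clears 0, from 0.01 to 0.50, and it was not called.

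MUS81 had the smallest p in Huh-7. The gene (ENSG00000172732; GRCh38 chromosome 11, 65857126 to 65867653, plus strand) gave 15.02, 12.92 and 14.8 TPM in Huh-7 si-CENPU, against 11.3, 11.6 and 12.4 TPM in Huh-7 si-NC. The groups did not overlap. In MHCC-97H it read 15.01, 16.24 and 13.75 TPM with si-CENPU and 11.84, 14.99 and 13.6 TPM with si-NC, and the groups overlapped. The log2 change was 0.25 in Huh-7 (SE 0.111; limma unadjusted p = 0.0428, adjusted p = 1) and 0.15 in MHCC-97H (SE 0.111; adjusted p = 1). Averaged over both lines it was 0.20, with an interval of 0.03 to 0.37 (limma unadjusted p = 0.0266, adjusted p = 0.999). CFL1, which shares exon sequence with MUS81, read 1649, 1952 and 1843 TPM in Huh-7 si-CENPU and 1606, 1680 and 1798 TPM in Huh-7 si-NC. Its part in the MUS81 values was not tested.

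The kinase gene CHEK1 (ENSG00000149554; chromosome 11, 125625136 to 125676255, plus strand) gave 1.05, 0.74 and 0.97 TPM in Huh-7 si-CENPU, against 1.28, 1.84 and 1.22 TPM in Huh-7 si-NC. The groups did not overlap, with si-CENPU the lower one. The log2 change was -0.34 (SE 0.198; limma unadjusted p = 0.111, adjusted p = 1). In MHCC-97H the values were 5.24, 4.63 and 4.0 TPM with si-CENPU and 6.02, 5.94 and 3.27 TPM with si-NC, which overlapped, with a log2 change of -0.08 (SE 0.198). RAD51C, a paralog that forms complexes with the other paralogs, read 5.12, 2.67 and 4.09 TPM in Huh-7 si-CENPU and 4.75, 5.42 and 5.64 TPM in Huh-7 si-NC. Its groups overlapped (log2 change -0.37, SE 0.217; limma adjusted p = 1).

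BRCA1 was uneven in Huh-7. It read 3.62, 1.17 and 7.28 TPM in Huh-7 si-CENPU, against 1.56, 2.47 and 2.03 TPM in Huh-7 si-NC, so the si-CENPU libraries spanned both sides of the si-NC libraries. The log2 change was 0.54 (SE 0.375; limma unadjusted p = 0.176, adjusted p = 1), and it ranged from 0.08 to 1.05 as each library was left out in turn. The library with the highest BRCA1, Huh-7 si-CENPU replicate 3, also had 5.96 TPM of RBBP8, where the other 2 si-CENPU libraries had 1.31 and 2.14 TPM. In MHCC-97H, BRCA1 read 4.67, 6.04 and 3.59 TPM with si-CENPU and 4.78, 4.71 and 5.09 TPM with si-NC.

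In MHCC-97H the smallest p among members belonged to TOPBP1. It read 1.92, 3.02 and 1.63 TPM in MHCC-97H si-CENPU, against 3.77, 3.24 and 2.21 TPM in MHCC-97H si-NC. The groups overlapped, and the log2 change was -0.36 (SE 0.219; limma unadjusted p = 0.132, adjusted p = 1). EME1 read 1.69, 3.49 and 1.28 TPM with si-CENPU and 3.47, 4.16 and 1.90 TPM with si-NC (log2 change -0.43, SE 0.277; adjusted p = 1). FANCD2, the chromatin-bound target of the core complex, read 2.01, 2.41 and 1.58 TPM with si-CENPU and 4.19, 3.35 and 1.71 TPM with si-NC (log2 change -0.40, SE 0.27; adjusted p = 1). In all 3 genes si-NC replicate 3 lay within the range of the si-CENPU libraries, and in EME1 si-NC replicate 1 did too. In Huh-7 the changes of these genes were 0.14 for TOPBP1, 0.13 for EME1 and -0.01 for FANCD2.

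**Figure D4:**
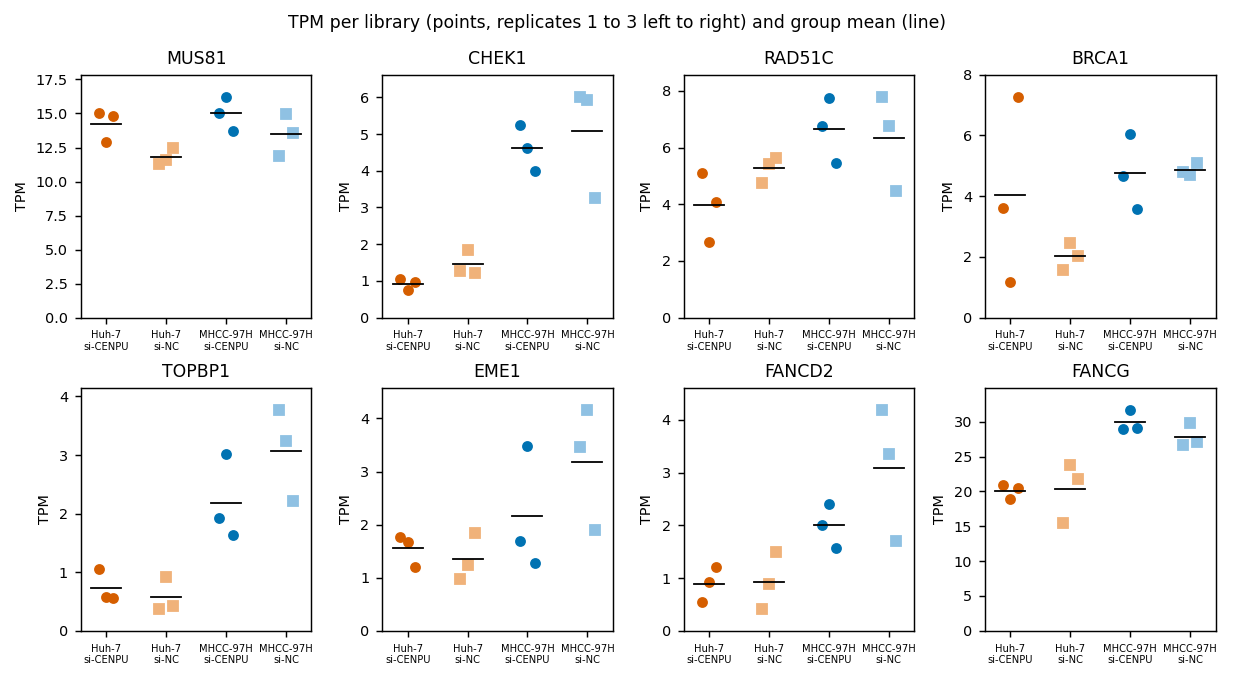
TPM in each library (points, replicates 1 to 3 from left to right) and group means (lines) for the 7 members with the smallest p in a knockdown comparison and for FANCG, the most abundant member. Only MUS81 and CHEK1 separate si-CENPU from si-NC, in Huh-7, and TOPBP1, EME1 and FANCD2 overlap in MHCC-97H.

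Counting separation alone, across all 41 members, 4 had every Huh-7 si-CENPU library above every Huh-7 si-NC library (2.66% of 30267 genes above 0 did) and 2 had every one below (2.31%). The higher ones were MUS81, NBN, RAD50 and FANCM, and the lower ones CHEK1 and RAD54B. RAD50 read 0.34, 0.13 and 0.34 TPM with si-CENPU and 0.05, 0.07 and 0.09 TPM with si-NC. NBN read 0.28, 0.19 and 0.41 TPM with si-CENPU and 0.10, 0.18 and 0.17 TPM with si-NC, and FANCM 0.11, 0.06 and 0.03 TPM, listed at 0 in the 3 si-NC libraries. These 3 lay so near 0 that the differences cannot be read as changes. RAD54B read 0.24, 0.12 and 0.22 TPM with si-CENPU and 4.79, 0.54 and 0.26 TPM with si-NC. In MHCC-97H, 2 members had every si-CENPU library above every si-NC library (2.09% of the genes), RAD52 and FANCM, and 0 had every one below (2.70%). RAD52 read 1.5, 0.95 and 1.19 TPM with si-CENPU and 0.79, 0.72 and 0.77 TPM with si-NC, and FANCM 0.76, 0.23 and 0.34 TPM with si-CENPU and 0.21, 0.21 and 0.04 TPM with si-NC. FANCM was low in both lines and separated in MHCC-97H by 0.23 against 0.21 TPM, so neither of its separations can be read as a change. The shares above are of all genes above 0, whose median level lay under that of the members.

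Single libraries carried several of the wide intervals. In Huh-7 si-NC replicate 1, which correlated least with its line, RAD54B was 8.87 times and FANCC 4.79 times the middle library of the group, at 4.79 and 4.93 TPM. RBBP8 read 5.96 TPM in Huh-7 si-CENPU replicate 3 and 5.88 TPM in Huh-7 si-NC replicate 1, where the other 4 Huh-7 libraries lay between 0.78 and 2.46 TPM. The median spread within groups, as an SD on the log2(TPM + 1) scale, was 0.29 for the 21 tested members and 0.23 for all tested genes. It was lowest for SLX4 (0.10), FANCE (0.11), MUS81 (0.12) and FANCF (0.12) and highest for RBBP8 (0.72), RAD54B (0.62), FANCC (0.53) and BRCA1 (0.52).

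Genes that work beside the 41 members gave no call after knockdown either. Of 15 other Fanconi pathway genes 13 were tested, and limma called 0 in Huh-7 and 0 in MHCC-97H, with 0 at an unadjusted p below 0.05. FAAP100, a core complex partner, averaged 12.7 TPM in Huh-7 si-CENPU and 13.9 TPM in Huh-7 si-NC. Of 19 other recombination genes 12 were tested, with 0 calls in each line. In MHCC-97H all 12 had negative changes, with a median log2 change of -0.16 against -0.05 for all tested genes, and in Huh-7 8 were positive and 4 negative. SWSAP1, a cofactor of the recombinase, was the one at an unadjusted p below 0.05, with 4.51, 3.94 and 4.11 TPM in MHCC-97H si-CENPU and 4.75, 5.67 and 5.38 TPM in MHCC-97H si-NC (log2 change -0.27, SE 0.102; limma adjusted p = 1). The BRCA1-A complex, which restrains resection, had 4 of 5 genes tested and 0 called.

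Of 15 other checkpoint genes 13 were tested and 0 called, with 3 at an unadjusted p below 0.05 before rounding in Huh-7, where 4.57% of all tested genes were, and 0 in MHCC-97H, where 3.42% were. RPA1, the large subunit of the protein that coats single strands, read 1.87, 1.11 and 1.17 TPM in Huh-7 si-CENPU and 0.49, 0.56 and 0.65 TPM in Huh-7 si-NC (log2 change 0.59, SE 0.165; limma unadjusted p = 0.00428, adjusted p = 0.828). HUS1, a subunit of the checkpoint clamp, read 1.53, 1.11 and 1.63 TPM with si-CENPU and 0.86, 0.65 and 0.65 TPM with si-NC (log2 change 0.49, SE 0.207; adjusted p = 1). Both separated the groups, at levels near 1 TPM. The kinase gene WEE1 read 0, 0.09 and 0.25 TPM with si-CENPU and 0.83, 0.44 and 0.45 TPM with si-NC (log2 change -0.50, SE 0.225; adjusted p = 1). In MHCC-97H the log2 change of HUS1 was -0.31 (limma adjusted p = 1), and RPA1 read 7.06, 7.52 and 6.08 TPM with si-CENPU and 9.08, 7.52 and 6.06 TPM with si-NC.

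Of 19 genes of end joining and the choice between the pathways, 11 were tested and 0 called. PAXX, an end-joining factor, was listed at 0 in each Huh-7 si-CENPU library, while Huh-7 si-NC gave 0.91, 0.31 and 0 TPM (limma adjusted p = 1). XRCC5 (Ku80) read 601, 410 and 1355 TPM in Huh-7 si-CENPU, against 0, 323 and 407 TPM in the Huh-7 controls (limma adjusted p = 1), with a median of 9.27 TPM over the 6 MHCC-97H libraries. The library listed at 0 was again Huh-7 si-NC replicate 1. Of 16 p53 target genes 11 were tested and 0 called. CDKN1A, the cell cycle inhibitor p21, read 4.94, 3.73 and 4.67 TPM in MHCC-97H si-CENPU and 5.43, 5.42 and 5.93 TPM in MHCC-97H si-NC (log2 change -0.28, SE 0.137; limma unadjusted p = 0.065, adjusted p = 1). The 15 proliferation markers gave 0 calls, with a median log2 change of -0.03 in Huh-7 and -0.04 in MHCC-97H.

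In the comparison of MHCC-97H with Huh-7 most tested members were higher in MHCC-97H, as were many genes of all kinds. In si-CENPU cells limma called 17 of the 21 tested members higher and 0 lower (46.2% of all tested genes were called higher and 23.9% lower). In si-NC cells it called 18 higher and 0 lower (50.1% and 22.9% of all tested genes). A member could pass the filter through its MHCC-97H level alone, so these shares of tested members are not support for a difference of the list. XRCC2, TOPBP1, EXO1 and FANCD2 did so, with Huh-7 means of 0.378, 0.650, 0.773 and 0.913 TPM. The direction of their mean difference was thus fixed in advance in this fit. With the filter lifted, XRCC2, TOPBP1 and EXO1 were called higher with both small interfering RNAs, and FANCD2 in si-NC cells alone. The median log2 difference of the members was 0.82 in si-CENPU cells and 0.94 in si-NC cells, and that of all tested genes was 0.40 and 0.49 in the same order. Both comparisons use the same scale and the same 12-library fit, and neither shares a library with the other.

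Since the median of all genes was itself shifted, the members were also set against that shift. In si-CENPU cells the 95% interval lay above the median of all tested genes for 9 of 21 members (31.9% of all tested genes) and below it for 1. In si-NC cells it lay above for 7 of 21 (32% of all tested genes) and below for 1. The 6 members above in both were these: FANCE, XRCC3, FANCI, CHEK1, FANCA and XRCC2. The share in si-NC cells lies near that of all tested genes, and XRCC2 passed the filter through MHCC-97H alone. The names are thus a description, not support for a difference of the list. Trimmed-mean scaling, which brings the median of all genes to 0.03 in si-CENPU cells and 0.04 in si-NC cells, left 10 members called higher in each (34.1% and 35.1% of tested genes) and called MUS81 lower in each (34.1% and 34% of tested genes were lower).

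**Figure D5:**
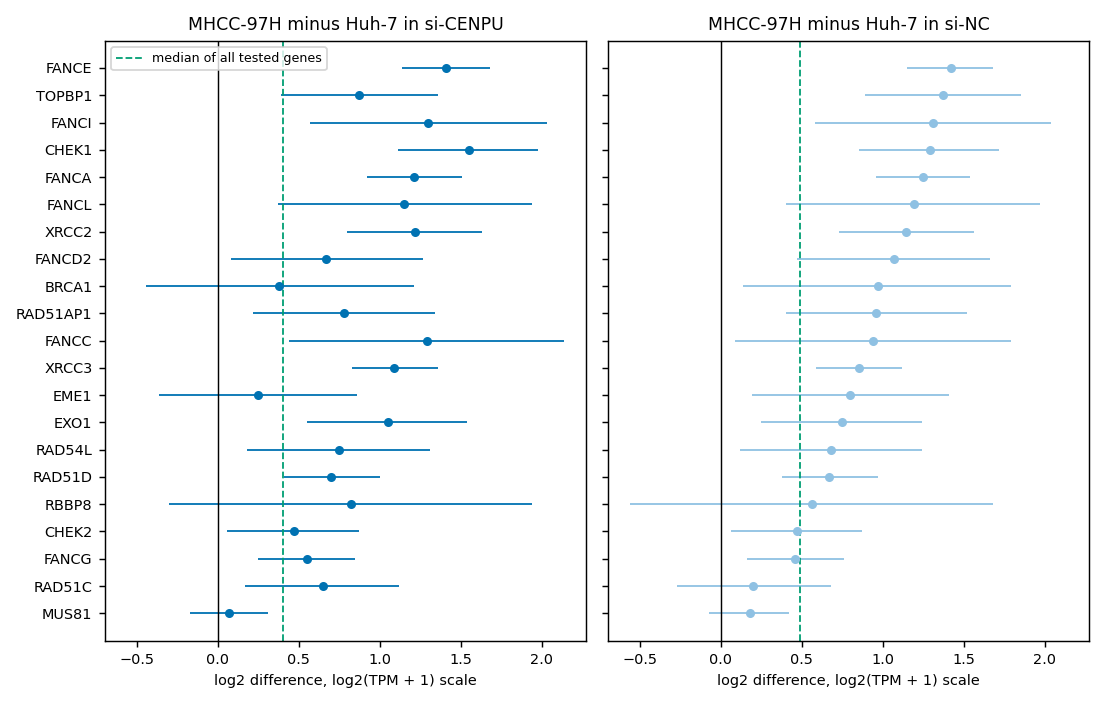
Log2 difference of MHCC-97H minus Huh-7 for the 21 tested members (points) with 95% intervals (bars), in si-CENPU cells on the left and si-NC cells on the right, with the median of all tested genes as a dashed line. FANCE, CHEK1, FANCA, XRCC2, XRCC3 and FANCI lie right of the dashed line with their intervals in both panels, and MUS81 lies left of it. XRCC2 passed the filter through MHCC-97H alone.

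FANCE, the core complex subunit that contacts FANCD2, had one of the largest differences and a small spread. The gene (ENSG00000112039; GRCh38 chromosome 6, 35452356 to 35467103, plus strand) read 6.15, 7.67 and 6.12 TPM in MHCC-97H si-CENPU, against 1.73, 1.84 and 2.03 TPM in Huh-7 si-CENPU. With si-NC it read 5.89, 6.69 and 5.92 TPM in MHCC-97H and 1.49, 1.69 and 1.88 TPM in Huh-7. The lines did not overlap with either small interfering RNA. The log2 difference was 1.41 in si-CENPU cells (SE 0.121; limma adjusted p = 9.49e-07) and 1.42 in si-NC cells (SE 0.121; limma adjusted p = 9.03e-07). Its start-site window, printed above, held 0 of the E2F-type matches.

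CHEK1, whose values by library are given above, was likewise higher in each MHCC-97H library, at 4.62 ± 0.620 TPM in MHCC-97H si-CENPU against 0.920 ± 0.161 TPM in Huh-7 si-CENPU (SD, n = 3 each). With si-NC it averaged 5.08 ± 1.57 TPM in MHCC-97H and 1.45 ± 0.342 TPM in Huh-7 (SD, n = 3 each). The log2 differences were 1.55 (SE 0.198; limma adjusted p = 2.92e-05) in si-CENPU cells and 1.29 (SE 0.198; limma adjusted p = 1.28e-04) in si-NC cells. TOPBP1, with 2.19 ± 0.733 TPM in MHCC-97H si-CENPU and 0.727 ± 0.280 TPM in Huh-7 si-CENPU (SD, n = 3 each), differed by 0.87 (SE 0.219; limma adjusted p = 0.00408). Its difference in si-NC cells was 1.37 (SE 0.219; limma adjusted p = 1.71e-04). CHEK2 passed by little, with log2 differences of 0.47 in both (limma adjusted p = 0.0419 in si-CENPU cells and 0.0396 in si-NC cells). Both CHEK2 calls ended under trimmed-mean scaling, at 0.15 and 0.07 (limma adjusted p = 0.454 and 0.747), and with no filter (limma adjusted p = 0.0737 and 0.0697).

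FANCA (ENSG00000187741; chromosome 16, 89737549 to 89816657, minus strand) gave 25.7, 18.1 and 18.8 TPM in MHCC-97H si-CENPU, against 7.63, 8.92 and 8.49 TPM in Huh-7 si-CENPU. With si-NC it read 21.6, 21.1 and 20.3 TPM in MHCC-97H and 7.61, 7.90 and 9.28 TPM in Huh-7. The lowest MHCC-97H library lay well above the highest Huh-7 library, and the log2 differences were 1.21 (limma adjusted p = 8.31e-06) and 1.25 (limma adjusted p = 6.29e-06). ZNF276, which shares exon sequence with FANCA, averaged 4.28 TPM in MHCC-97H and 2.07 TPM in Huh-7, and its part was not tested. FANCG, of the same subcomplex, differed less, at 26.6 to 31.7 TPM in MHCC-97H and 15.5 to 23.8 TPM in Huh-7, with log2 differences of 0.55 in si-CENPU cells and 0.46 in si-NC cells (limma adjusted p = 0.00372 and 0.0105). Trimmed-mean scaling ended both FANCG calls, with 0.08 in si-CENPU cells (limma adjusted p = 0.516) and -0.11 in si-NC cells (limma adjusted p = 0.37), so its direction in si-NC cells turned with the scaling. Quantile normalization gave 0.24 in si-CENPU cells and 0.05 in si-NC cells (limma adjusted p = 0.0481 and 0.644).

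FANCL ranged from 2.25 to 6.43 TPM in MHCC-97H and from 0.30 to 2.31 TPM in Huh-7, so the lines overlapped slightly. Its log2 differences were 1.15 in si-CENPU cells and 1.19 in si-NC cells (limma adjusted p = 0.013 and 0.0105). FANCC lay between 3.61 and 4.30 TPM in MHCC-97H and between 0.48 and 1.40 TPM in 5 Huh-7 libraries, with 4.93 TPM in Huh-7 si-NC replicate 1. Its log2 difference was 1.29 in si-CENPU cells (limma adjusted p = 0.011) and 0.94 in si-NC cells (limma adjusted p = 0.0457). Without Huh-7 si-NC replicate 1 the difference in si-NC cells was 1.53 (limma adjusted p = 1.29e-05). Leaving out any 1 of the other 11 libraries instead ended the FANCC call in si-NC cells (limma adjusted p up to 0.194). Lifting the filter ended it too (limma adjusted p = 0.0945). Under trimmed-mean scaling of all libraries the difference in si-NC cells was 0.51 (limma adjusted p = 0.35). There the FANCC call in si-CENPU cells ended as well (0.97, limma adjusted p = 0.086). FANCI and FANCD2, the ubiquitinated pair, differed by 1.30 and 0.67 in si-CENPU cells (limma adjusted p = 0.00452 and 0.0439) and by 1.31 and 1.07 in si-NC cells (limma adjusted p = 0.00408 and 0.00405). The FANCD2 call in si-CENPU cells ended under trimmed-mean scaling (0.40, limma adjusted p = 0.138) and with no filter (limma adjusted p = 0.0871). FANCI ranged from 2.08 to 5.73 TPM in MHCC-97H and from 0.46 to 1.66 TPM in Huh-7, and FANCD2 from 1.58 to 4.19 TPM in MHCC-97H and from 0.42 to 1.5 TPM in Huh-7.

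Among the recombinase paralogs and cofactors, XRCC3 had the smallest p. It read 17.6, 20.0 and 15.8 TPM in MHCC-97H si-CENPU against 7.53, 7.02 and 8.84 TPM in Huh-7 si-CENPU, and 14.8, 18.0 and 15.5 TPM in MHCC-97H si-NC against 8.56, 8.09 and 8.72 TPM in Huh-7 si-NC. The lines did not overlap, and the log2 differences were 1.09 (limma adjusted p = 8.13e-06) and 0.85 (limma adjusted p = 6.38e-05). KLC1, with which XRCC3 shares most of its exon sequence, was 1.69 times as high in MHCC-97H as in Huh-7 by the means of 6 libraries, and XRCC3 2.09 times. XRCC2 ranged from 1.39 to 2.76 TPM in MHCC-97H and from 0.29 to 0.54 TPM in Huh-7, with log2 differences of 1.22 in si-CENPU cells and 1.14 in si-NC cells (limma adjusted p = 1.33e-04 and 2.10e-04). RAD51D, from 7.85 to 9.98 TPM in MHCC-97H and from 3.64 to 5.55 TPM in Huh-7, differed by 0.70 and 0.67 (limma adjusted p = 6.53e-04 and 8.29e-04). RAD51AP1 and RAD54L differed by 0.78 and 0.75 in si-CENPU cells (limma adjusted p = 0.0175 and 0.0217) and by 0.96 and 0.68 in si-NC cells (limma adjusted p = 0.00536 and 0.0319). Trimmed-mean scaling ended the si-CENPU calls of RAD51AP1 (0.48, limma adjusted p = 0.0733) and RAD54L (0.41, limma adjusted p = 0.111) and the si-NC calls of RAD54L (0.25, limma adjusted p = 0.315) and RAD51D (0.17, limma adjusted p = 0.139). RAD51C differed by 0.65 in si-CENPU cells (limma adjusted p = 0.0201) and by 0.20 in si-NC cells (limma adjusted p = 0.411), and the test of whether these 2 differences were unequal gave a limma adjusted p of 0.999. Under trimmed-mean scaling the RAD51C differences were 0.24 (limma adjusted p = 0.223) and -0.30 (limma adjusted p = 0.132), so that call ended too and the si-NC direction turned.

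EXO1 ranged from 1.44 to 3.52 TPM in MHCC-97H and from 0.36 to 1.14 TPM in Huh-7, with log2 differences of 1.05 in si-CENPU cells and 0.75 in si-NC cells (limma adjusted p = 0.0015 and 0.0109), of which the si-NC call ended under trimmed-mean scaling (0.41, limma adjusted p = 0.0671). BRCA1 differed by 0.38 in si-CENPU cells (interval -0.44 to 1.21; limma adjusted p = 0.381), where Huh-7 si-CENPU replicate 3 was the highest of all 12 libraries, and by 0.97 in si-NC cells (interval 0.14 to 1.79; limma adjusted p = 0.0361). The call in si-NC cells was lost under trimmed-mean scaling (limma adjusted p = 0.188) and with no filter (limma adjusted p = 0.0772). It was also lost without any 1 of 5 si-NC libraries, with the highest limma adjusted p (0.101) without Huh-7 si-NC replicate 1. Without Huh-7 si-CENPU replicate 3, BRCA1 differed by 0.84 in si-CENPU cells and was called (limma adjusted p = 0.0279). Without Huh-7 si-CENPU replicate 2 it differed by -0.12 instead (limma adjusted p = 0.696). EME1 differed by 0.25 in si-CENPU cells (limma adjusted p = 0.438) and by 0.80 in si-NC cells (limma adjusted p = 0.0217). Under trimmed-mean scaling EME1 gave -0.07 (limma adjusted p = 0.792) and 0.41 (limma adjusted p = 0.133), which ended the si-NC call and turned the si-CENPU direction. For BRCA1 and EME1 alike, the test of unequal differences gave a limma adjusted p of 0.999. RBBP8 was not called in either, with intervals from -0.30 to 1.94 and from -0.56 to 1.68, but without Huh-7 si-CENPU replicate 3 it differed by 1.28 in si-CENPU cells and was called (limma adjusted p = 0.0454).

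MUS81 had the smallest difference between the lines among the tested members, though in si-NC cells RAD51C, at 0.20, lay close to it. MUS81 shares 14.1% of its exonic bases with CFL1 and EFEMP2, and their part was not tested. The log2 difference of MUS81 was 0.07 in si-CENPU cells, with an interval of -0.17 to 0.31 (limma adjusted p = 0.591). In si-NC cells it was 0.18, with an interval of -0.07 to 0.42 (limma adjusted p = 0.171). Both intervals lay below the median of all tested genes. Trimmed-mean scaling turned the differences to -0.39 and -0.37 (limma adjusted p = 0.0171 and 0.022), and quantile normalization to -0.29 and -0.26 (limma adjusted p = 0.0491 and 0.070), so its direction depends on the scaling.

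Over all 41 members and 6 libraries a line, with no filter, 21 had every MHCC-97H library above every Huh-7 library (21.5% of 30267 genes above 0 did). FANCF was the 1 member with every MHCC-97H library below (12.7% of those genes). With the filter lifted, limma called 23 of 41 members higher and 1 lower in si-CENPU cells (22.1% and 14% of all genes) and 24 higher and 1 lower in si-NC cells (24.6% and 13.5%). The lower one was FANCF in both. Genes above 0 had a median level of 0.182 TPM in MHCC-97H and 0.178 TPM in Huh-7, against 2.16 and 0.773 TPM for the members. The shares thus compare unlike sets, and they are not support for a difference of the list. Members under the filter that were called higher with both small interfering RNAs were ATR, MRE11, NBN, BLM, FANCB and BRIP1. Means of 6 libraries were higher in MHCC-97H for 39 of the 41, the other 2 being FANCF and RAD54B. Proliferation markers were also mostly higher in MHCC-97H. With each small interfering RNA 14 of 15 were called higher (46.2% of all tested genes in si-CENPU cells and 50.1% in si-NC cells). The median log2 difference of these markers was 1.46 in si-CENPU cells and 1.37 in si-NC cells. But 5 of the 15 stayed under 1 TPM in each Huh-7 library and passed the filter through MHCC-97H alone. The direction of these 5 was thus fixed in advance, and their Huh-7 values can be poor estimates. The part of proliferation in the higher levels of the repair genes was not tested.

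Related lists held genes that were higher and genes that were lower in MHCC-97H. In si-NC cells, 8 of 13 tested other Fanconi pathway genes were called higher in MHCC-97H and 0 lower, and 6 of 12 other recombination genes higher and 3 lower, where 50.1% of all tested genes were called higher and 22.9% lower. These shares of higher calls lie near that of all tested genes. CENPX and FAAP20, small partners of the core complex and of FANCM, were among those listed near 0 in Huh-7: CENPX read 348 to 391 TPM in MHCC-97H and 0 to 0.86 TPM in Huh-7, and FAAP20 131 to 154 TPM in MHCC-97H and 0 to 0.24 TPM in Huh-7. RFWD3, a ubiquitin ligase of the pathway, read 3.78 to 7.55 TPM in MHCC-97H and 0 to 0.08 TPM in Huh-7. SWSAP1, at 3.94 to 5.67 TPM in MHCC-97H and 12.2 to 13.9 TPM in Huh-7, and RAD9A, a subunit of the checkpoint clamp, at 15.8 to 20.0 TPM in MHCC-97H and 51.4 to 60.6 TPM in Huh-7, were lower in MHCC-97H. RPA2, which every replicating cell uses, read 10.2 to 19.0 TPM in MHCC-97H and was listed at 0 in 5 of 6 Huh-7 libraries.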

How the data were processed

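RNA of 12 libraries was sequenced from Illumina TruSeq libraries, per the labels' protocols. The deposited values are TPM per gene, made by the authors with HISAT2, StringTie and GRCh38.p13, per the submitters' processing notes. The sources used here give no versions, annotation release or strand setting, and TPM keeps no depth. Symbols were matched for 60447 of 60664 identifiers through GENCODE release 29. The members and lists were chosen with earlier results of these data known.

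Genes with a mean of at least 1 TPM over the 12 samples (11088) were tested as log2(TPM + 1) with limma 3.58.1 in R 4.3.3, with 1 mean per group, a variance trend and Benjamini-Hochberg adjustment at 0.05. The fit was tested on simulated data with 200 genes changed per line. Groups came from the sample titles. Named were the 4 members with the smallest p per line after knockdown, the 12 called with the largest differences between lines, and up to 3 genes per other list; the other tested members are given with their differences between lines, and the rest by level. The alternatives were another pseudocount and filter, trimmed-mean scaling, quantile normalization, no trend, only the samples compared, a replicate block, each library left out, and a GC correction added after seeing the data. Replicate numbers did not pair libraries. The immune gene with no matched symbol is not analysed here. Start-site sequences are from RefSeq GRCh38.p14, and figures were drawn with matplotlib 3.10.9.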

Additional observations from a re-analysis of the deposited data

How the results depend on the processing

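No member was called after knockdown, in either line, averaged or as a difference of responses, under any of the alternatives tried, each library left out included. Counts of all genes called after knockdown were 1 per comparison and moved with the setting. In Huh-7 they were 11 with a pseudocount of 0.1, 4 with no filter, 0 with a mean of at least 5 TPM, 2 under trimmed-mean scaling, 3 under quantile normalization and 0 with only the samples compared. In MHCC-97H they were 0 with a pseudocount of 0.1, 7 with no filter, 4 under trimmed-mean scaling, 7 under quantile normalization and 0 with no variance trend, with only the samples compared or with the GC correction. Averaged over lines they were 7 with no filter, 7 with a mean of at least 5 TPM, 8 under trimmed-mean scaling, 13 under quantile normalization, 0 with no variance trend and 2 with the GC correction. For the difference of responses they were 0 with a pseudocount of 0.1, 6 with no filter and 0 with a mean of at least 5 TPM. Between the lines, a mean of at least 5 TPM left 5 members and 4282 genes called in si-CENPU cells and 4 members and 4405 genes in si-NC cells, through fewer genes tested. Trimmed-mean scaling gave 11 members called in si-CENPU cells and 11 in si-NC cells, 10 higher and MUS81 lower in each. Quantile normalization gave 13 in si-CENPU cells, 12 higher and MUS81 lower, and 10 in si-NC cells, all higher. The cause was not tested. As each library was left out in turn, genes called ranged from 0 to 4 in Huh-7, 0 to 4 in MHCC-97H, 0 to 6 averaged and 0 to 4 for the difference of responses, and members from 0 to 0. Between the lines genes ranged from 7042 to 8061 in si-CENPU cells and from 7465 to 8213 in si-NC cells, and members from 12 to 18 and from 13 to 17 in the same order. Libraries with the same replicate number did not deviate together (correlations of -0.09 to 0.13), so the numbers do not pair them. The replicate block left 0 genes called in each knockdown comparison, and 15 members called between the lines in si-CENPU cells and 16 in si-NC cells. The block also ended the calls of CHEK2 in si-CENPU cells (limma adjusted p = 0.053) and si-NC cells (limma adjusted p = 0.0501), of FANCD2 in si-CENPU cells (limma adjusted p = 0.0672) and of BRCA1 in si-NC cells (limma adjusted p = 0.0523). Over the 21 tested members between the lines, 742 log2 differences under the alternatives kept direction and side of the threshold, 96 lost the call, 2 gained one and 12 changed sign. Those of changed sign were MUS81 under trimmed-mean scaling (-0.39 in si-CENPU cells and -0.37 in si-NC cells; limma adjusted p = 0.0171 and 0.022, so called lower in MHCC-97H) and quantile normalization (-0.29 and -0.26; limma adjusted p = 0.0491 and 0.07), EME1 in si-CENPU cells (-0.07 under both), RAD51C in si-NC cells (-0.30, -0.23, and -0.01 with the GC correction), FANCG in si-NC cells under trimmed-mean scaling (-0.11) and, in si-CENPU cells, EME1 without MHCC-97H si-CENPU replicate 2 (range with each library left out, -0.04 to 0.45) and BRCA1 without Huh-7 si-CENPU replicate 2 (range -0.12 to 0.84). Leaving out 1 library ended calls of BRCA1, CHEK2, EME1, FANCC, FANCD2, RAD51AP1, RAD51C and RAD54L, and each of the 12 libraries ended at least 2. After knockdown, 272 changes of the 7 genes described kept direction and stayed uncalled and 12 changed sign, also uncalled. These were FANCD2 in Huh-7 (0.03 with a pseudocount of 0.1, and -0.21 to 0.20 as each library was left out) and, in MHCC-97H, BRCA1 (0.01 under trimmed-mean scaling, 0.02 under quantile normalization, 0.00 with the GC correction, and -0.20 to 0.11 with libraries left out), CHEK1 (-0.32 to 0.04) and RAD51C (-0.12 to 0.22).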
